A study of Mus musculus with 6 samples.

Results

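The genes described here are 36 enzymes and factors of mitochondrial fuel oxidation: 18 of pyruvate entry and the citric acid cycle, and 18 of fatty acid oxidation, the receptor gene Ppara included. They were chosen by symbol, and every array probe matched to 1 of those symbols was taken, which gave 46 probes for 36 of the 20887 genes named on the array. The citric acid cycle genes had 22 of these probes and the fatty acid oxidation genes 24. All 46 probes were well above background in the sample channel on all 6 arrays, so none of the 36 genes was lost to the filter that left 14755 genes to test. For 28 genes a single probe was present, and for the other 8 the brightest of several probes stood for the gene.

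RNA came from cells labelled as collecting duct cells of newborn C57BL/6 mice, 3 samples with Bdkrb2 deleted (KO) and 3 with the gene intact (WT). KO pups carried the Hoxb7cre transgene, 2 floxed Bdkrb2 alleles and the R26R tdTomato reporter. WT pups carried Hoxb7cre, the same reporter and unfloxed Bdkrb2, so Cre and reporter were common to both groups. The Hoxb7 promoter directs Cre to the ureteric bud and the collecting ducts that grow from it. The sort took cells with both GFP and dsRED signal on day 1 after birth, and a diet of 5% sodium was given throughout, so both groups had been salt-exposed during gestation. The question set by the design is which transcripts differ between the genotypes under that salt load. The labels call the replicates biological and leave the number of animals per sample unstated, so p-values measure the spread between these samples. The floxed parents given for KO pups yield no wild-type pups, so litter and genotype cannot be told apart.

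Each array held sample RNA in the Cy5 channel and RNA of WT replicate 1 in the Cy3 channel, and every value below is a log2 ratio of Cy5 over Cy3 unless another scale is named. The array of WT replicate 1 set that RNA against itself, and the 36 genes spanned -0.43 to 0.45 on it. Differences are KO minus WT of those ratios, given with the standard error (SE) of the limma fit and n = 3 arrays per group. A gene was called where its p, adjusted by Benjamini-Hochberg over all 14755 genes tested, was under 0.05.

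The citric acid cycle burns acetyl groups to carbon dioxide in the mitochondrial matrix and hands the electrons to the respiratory chain. Pyruvate dehydrogenase supplies acetyl-CoA from glucose, and fatty acid oxidation supplies it by removing acetyl units from acyl chains that enter the mitochondrion on carnitine. In the kidney, tubule segments that pump much sodium are rich in mitochondria and rely on oxidation for ATP, and the receptor PPAR alpha and the estrogen-related receptors with their coactivator PGC-1 alpha are known inducers of these genes.

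Of the whole array, KO cells had 56.6% to 57.5% of spots well above background in Cy5 and WT cells 49.8% to 52.7%, and no spot was saturated. The single Bdkrb2 probe was well above background on 0 of 6 arrays, with ratios of -0.02, 0.05 and -0.08 in KO and 0.12, 0.09 and -0.16 in WT, so it could not check the genotype labels. Markers of the labelled cell type were present but lower in KO, and markers of other kidney cells were present in both groups. Of the principal cell markers 9 of 9 tested were called lower in KO, with summed Cy5 intensities of 13240 to 15060 in KO and 28426 to 31408 in WT. Stroma markers were called higher for 8 of 10, with sums of 63753 to 76237 in KO and 4134 to 14971 in WT. Nephron progenitor markers were called higher for 9 of 10, with sums of 41721 to 88509 in KO and 10202 to 12340 in WT. These sums are unscaled, without adjustment for the brightness of each array, and KO arrays were brighter. The 75th percentile of the Cy5 signal was 547.6 to 625.4 on KO arrays and 282.4 to 309.1 on WT arrays. Of all tested genes, 20.0% were called lower and 15.4% higher. No tested marker of any list was below background on all arrays of a group. The part of this difference in cell markers in the results below was not tested, and in bulk RNA fewer cells of a type and less RNA per cell cannot be told apart.

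Genes of both pathways were lower in KO cells. Of the 36 genes, 30 were called lower in KO and 0 higher, against 20.0% of all tested genes called lower and 15.4% called higher. The citric acid cycle had 16 of 18 called lower and fatty acid oxidation 14 of 18. The 3 KO ratios lay below the 3 WT ratios without overlap for 33 of 36 genes, where 28.2% of all tested genes did so. The median difference was -0.70 for the citric acid cycle genes and -0.69 for the fatty acid oxidation genes, beside -0.02 over all genes tested. Folds of the called genes ran from 1.44-fold to 2.65-fold lower, with SE of 0.11 to 0.20, so the decreases were moderate in size. A decrease of at least 2-fold was called for 5 of them, Idh3a, Fh1, Mdh1, Acadm and Acadvl, where 5.16% of all tested genes passed both conditions.

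These counts depended on how the arrays were scaled. Where arrays were centred on their medians and loess was left out, the median of all genes moved to 0.24. This scaling left 4 citric acid cycle genes and 5 fatty acid oxidation genes called lower, where 7.02% of all genes were. The share of calls that were higher in KO was 43.5% with loess and 74.4% with median centring. Relative to the median of all genes, the pathway medians were then -0.63 and -0.58, beside -0.68 and -0.67 with loess, and 34 of 36 genes stayed below the median of all genes. No member was called higher under any of 18 alternatives, and each of the 30 called genes had a negative difference in all of them. The genes called lower in every alternative were 8: Idh3a, Ogdh, Fh1, Mdh1, Cpt1a, Acadm, Acadvl and Hadhb. Slide row also moved with genotype in part, since the KO arrays and WT replicate 1 were in row 1 and WT replicates 2 and 3 in row 2. With slide row as a block, 15 citric acid cycle and 12 fatty acid oxidation genes were called lower, where 10.0% of all genes were. Within row 1, only WT replicate 1 stands for WT, and no array of KO was in row 2.

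The 75th percentile of the unscaled Cy5 signal was 602.6, 625.4 and 547.6 on the KO arrays and 306.2, 309.1 and 282.4 on the WT arrays. Before scaling, the Cy5 mean was therefore higher in KO for 91.5% of all genes, and for 27 of the 36 described here. The 9 genes with a lower unscaled mean in KO were Idh3a, Ogdh, Fh1, Mdh1, Cpt1a, Acadm, Acadvl, Hadhb and Ppara. For Acadm, Hadhb and Fh1 the means were nearly equal, with KO over WT of 0.99, 0.98 and 0.97. Ppara read 182.8, 684.5 and 563.4 in KO against 600.6, 500.2 and 565.2 in WT, so KO replicate 1 stood apart. The other 2 Ppara probes had a higher mean in KO, with KO over WT of 1.08 and 1.27. All decreases below are thus relative to the other transcripts on the same array.

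**Figure D1:**
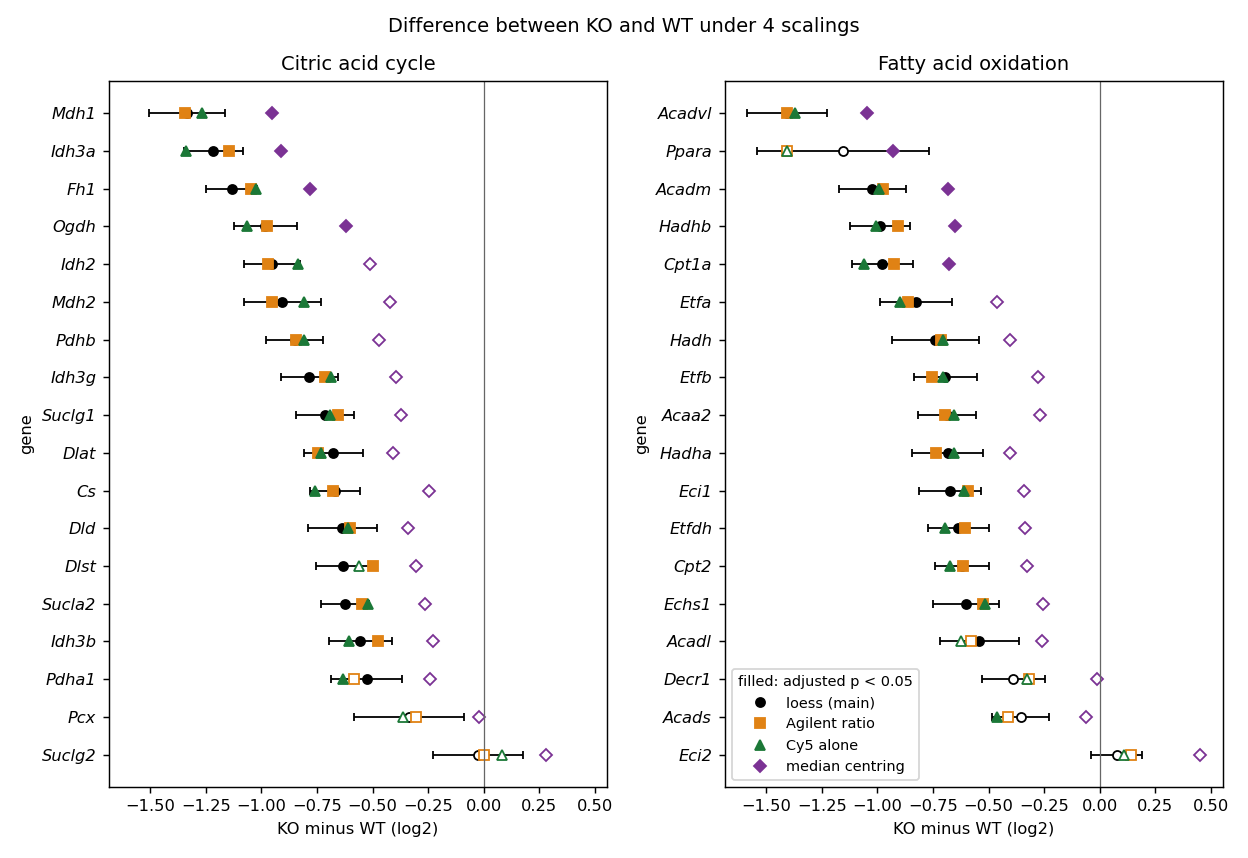
KO minus WT difference (log2, horizontal axis) of each gene of the 2 pathways under 4 scalings of the same arrays, with filled symbols for an adjusted p under 0.05 and bars for the SE of the loess fit (n = 3 KO and 3 WT arrays). Loess, Agilent and Cy5 values lie close together for most genes, median centring moves every gene to the right, and Eci2 and Suclg2 sit near or right of 0.

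Promoters of 33 of the 36 genes were in a RefSeq table of windows of 300 bases around annotated start sites (GRCm38.p6), and Acaa2, Decr1 and Idh3a had no entry. Both strands were searched for short motifs of the estrogen-related receptors, of PPAR and of NRF1, a factor known for inducing mitochondrial genes. The core site of the estrogen-related receptors, AAGGTCA, was found for 2 of 33 genes, Ogdh and Acadm, near the share of 5.38% of all 27025 genes. Its longer form TCAAGGTCA, which contains the core, was found for 0 of 33 genes, where 0.466% of all genes held it. The PPAR element, a direct repeat of AGGTCA with 1 base of any kind between the copies, was found for 0 of 33, where 0.0481% of all genes held it. At shares this low, 0 of 33 was the likely count for any genes, so neither result shows a lack of such elements. The NRF1 motif, GCGCA then any base then GCGC, was found for 5 of 33, Dld, Sucla2, Etfb, Etfdh and Ppara, where 5.19% of all genes held it. A match is a stretch of letters, not a bound site, and whether a motif bears on the level of its gene was not tested.

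The windows of 4 genes are shown because their genes recur below. Ogdh and Acadm are the genes with the receptor core, and Sucla2 and Suclg2 are alternative beta subunits of the same enzyme that differed in the comparison. Capitals mark the motif as it lies on the printed strand. In Ogdh (chr11:6291920-6292219, plus strand, the only one of its 6 listed windows with the core) the core is read on the reverse strand and begins 5 bases before the start site. In Acadm (chr3:153944594-153944893, minus strand) it is again on the reverse strand, 249 bases before the start. In Sucla2 (chr14:73552536-73552835, plus strand) the capitals mark the NRF1 motif, 17 bases before the start. Suclg2 (chr6:95718797-95719096, minus strand) held none of the motifs.
Ogdh: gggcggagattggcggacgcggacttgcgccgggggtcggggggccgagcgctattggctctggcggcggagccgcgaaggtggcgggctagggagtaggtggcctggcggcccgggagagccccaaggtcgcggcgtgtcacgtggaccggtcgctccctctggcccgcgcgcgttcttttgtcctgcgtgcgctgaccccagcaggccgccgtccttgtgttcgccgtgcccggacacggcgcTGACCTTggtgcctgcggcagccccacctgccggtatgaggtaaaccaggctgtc
Acadm: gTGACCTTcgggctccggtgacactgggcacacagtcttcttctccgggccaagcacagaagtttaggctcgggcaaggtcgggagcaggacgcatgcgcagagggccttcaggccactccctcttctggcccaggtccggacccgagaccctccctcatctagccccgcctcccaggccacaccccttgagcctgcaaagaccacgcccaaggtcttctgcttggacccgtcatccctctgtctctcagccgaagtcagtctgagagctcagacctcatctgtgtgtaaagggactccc
Sucla2: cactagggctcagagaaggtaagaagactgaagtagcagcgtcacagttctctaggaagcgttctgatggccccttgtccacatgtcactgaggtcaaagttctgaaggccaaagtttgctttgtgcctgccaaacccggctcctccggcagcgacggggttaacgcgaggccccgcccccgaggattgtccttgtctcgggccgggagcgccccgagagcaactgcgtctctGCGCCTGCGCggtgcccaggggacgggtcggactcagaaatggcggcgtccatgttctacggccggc
Suclg2: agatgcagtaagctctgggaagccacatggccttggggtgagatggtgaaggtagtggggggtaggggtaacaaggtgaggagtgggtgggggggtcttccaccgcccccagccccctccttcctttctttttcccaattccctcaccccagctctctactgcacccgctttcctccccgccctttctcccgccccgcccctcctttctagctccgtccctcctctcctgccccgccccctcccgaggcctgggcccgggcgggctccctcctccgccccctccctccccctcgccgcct

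Pyruvate enters the cycle through the pyruvate dehydrogenase complex, and its subunit genes were lower in KO. Pdhb, the beta subunit of the decarboxylating enzyme, read -0.92, -0.74 and -0.70 in KO against 0.23, -0.15 and 0.11 in WT. The groups did not overlap, and the difference was -0.85 ± 0.13, 1.80-fold lower, with an adjusted p of 0.00184 from limma. A second Pdhb probe gave -0.99. Dlat, the acetyltransferase core, read -0.61, -0.75 and -0.51 in KO against 0.22, -0.18 and 0.11 in WT, so all KO arrays were below all WT arrays. Its difference was -0.68 ± 0.13 (limma adjusted p = 0.00559).

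Dld, the dihydrolipoyl dehydrogenase that this complex shares with oxoglutarate dehydrogenase, read -0.72, -0.84 and -0.80 in KO against 0.14, -0.47 and -0.13 in WT. Its KO values were close together and its WT values spread widely, with a difference of -0.64 ± 0.15 (limma adjusted p = 0.0147). Without KO replicate 2 its adjusted p was 0.0505 and without WT replicate 3 it was 0.0576. Pdha1, the alpha subunit, read -0.97, -0.68 and -0.47 in KO against 0.03, -0.39 and -0.19 in WT. The KO array nearest to WT, replicate 3, was only just below WT replicate 2. The Pdha1 difference of -0.53 ± 0.16 (limma adjusted p = 0.0357) was the weakest call of the cycle. Its adjusted p was 0.0584 without KO replicate 1, 0.0814 without KO replicate 2, 0.118 without WT replicate 1 and 0.102 without WT replicate 3, and the call was also lost with Agilent's own ratios (0.0613) and under the slide row block (0.065).

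Pcx, the pyruvate carboxylase that refills the cycle with oxaloacetate, was not called. It read -0.38, -0.97 and -1.03 in KO against -0.10, -0.95 and -0.32 in WT. WT replicate 2 lay among the KO values, and the difference was -0.33 ± 0.25 (limma adjusted p = 0.327). Enzymes that control pyruvate entry were looked at beside these genes, and 6 of 9 tested were called lower and 0 higher, where 20.0% of all tested genes were called lower, with a median of -0.63. Mpc1 and Mpc2, which form the carrier of pyruvate into mitochondria, fell by 1.21 and 1.25 on the log2 scale. The dehydrogenase kinases Pdk1 and Pdk4, which switch the complex off, had differences of -1.003 ± 0.11 and -1.02 ± 0.14, so these inhibitor genes were lower together with the enzyme genes. Of the other kinases, named to complete the set, Pdk2 was also called lower (-0.53 ± 0.10) and Pdk3 was not called (-0.06 ± 0.11).

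The first steps of the cycle build citrate and oxidise isocitrate and oxoglutarate. Cs, citrate synthase, read -0.64, -0.61 and -0.84 in KO against -0.02, -0.16 and 0.09 in WT. The KO arrays were all below the WT arrays, by -0.67 ± 0.11 (limma adjusted p = 0.00317). Idh2, the NADP-dependent mitochondrial isocitrate dehydrogenase, read -0.89, -0.90 and -0.87 in KO against 0.13, -0.17 and 0.25 in WT. The KO arrays were nearly identical, and the gene was 1.94-fold lower (-0.95 ± 0.13, limma adjusted p = 0.00103).

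The NAD-dependent isocitrate dehydrogenase is made of 3 kinds of subunit, and all 3 genes were called lower. Idh3a, its catalytic subunit, read -1.23, -1.38 and -1.33 in KO against 0.00, -0.35 and 0.07 in WT. The gap between the groups was wide, the difference was -1.22 ± 0.13, 2.32-fold lower, and the limma adjusted p was 0.000448. Its unscaled Cy5 intensities were also lower, 5316, 5376 and 5030 in KO against 7455, 5964 and 6815 in WT. Idh3g, a regulatory subunit, read -0.84, -1.07 and -1.04 in KO against -0.20, -0.39 and -0.01 in WT, a separation of -0.79 ± 0.13 (limma adjusted p = 0.00253). Idh3b, the beta subunit, read -0.97, -0.85 and -0.66 in KO against -0.08, -0.51 and -0.23 in WT. KO replicate 3 and WT replicate 2 came closest there, and the difference was -0.56 ± 0.14 (limma adjusted p = 0.0173). The Idh3b call was lost without KO replicate 2 (adjusted p = 0.0548), WT replicate 1 (0.0628) and WT replicate 3 (0.0691).

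Ogdh, the decarboxylating subunit of oxoglutarate dehydrogenase, read -1.21, -1.30 and -1.13 in KO against -0.21, -0.50 and 0.01 in WT. All KO arrays were far below WT, with a difference of -0.98 ± 0.14, 1.98-fold lower (limma adjusted p = 0.00146). Another bright Ogdh probe gave -1.11, while a dim one gave -0.26 and was not called (adjusted p = 0.158 over all probes). The promoter printed above for this gene carries the receptor core. Dlst, the succinyltransferase core of the same complex, read -0.68, -0.75 and -0.82 in KO against -0.02, -0.34 and 0.01 in WT. Its groups were apart by -0.63 ± 0.12 (limma adjusted p = 0.00547), and the call was lost in the Cy5 channel alone.

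Succinyl-CoA synthetase pairs a shared alpha subunit with 1 of 2 beta subunits that set whether ATP or GTP is formed. Suclg1, the alpha subunit, read -0.93, -1.07 and -1.06 in KO against -0.15, -0.55 and -0.21 in WT. All KO values were below WT, with a difference of -0.71 ± 0.13 (limma adjusted p = 0.00419). Sucla2, the ATP-forming subunit, read -0.59, -0.63 and -0.69 in KO against 0.02, -0.17 and 0.11 in WT. It was 1.54-fold lower without overlap (-0.62 ± 0.11, limma adjusted p = 0.0033).

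Suclg2, the GTP-forming subunit, behaved otherwise. It read -0.18, -0.71 and -0.66 in KO against -0.15, -0.80 and -0.52 in WT. The groups overlapped fully, and its difference of -0.03 ± 0.20 was not called (limma adjusted p = 0.932), with a sign that turned under 4 other scalings and sources of the ratio. Within each array, Suclg2 minus Sucla2 was 0.41, -0.08 and 0.03 in KO and -0.17, -0.63 and -0.63 in WT, a mean of 0.12 ± 0.26 in KO and -0.48 ± 0.27 in WT (SD, n = 3 each). The balance of the pair was higher on every KO array than on any WT array. The pair was chosen after its values were seen, so no test is given.

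The last steps regenerate oxaloacetate. Mdh1, listed with them though its enzyme is cytosolic, had the largest difference of the 18 genes listed for the cycle. Fh1, fumarase, read -1.11, -1.16 and -1.25 in KO against 0.04, -0.23 and 0.07 in WT. With a difference of -1.13 ± 0.12 it had the lowest adjusted p of the 36 genes (limma, 0.000346). Mdh1, the cytosolic malate dehydrogenase of the malate-aspartate shuttle, read -1.24, -1.14 and -1.08 in KO against 0.45, -0.21 and 0.31 in WT. KO values were tight and far below WT, with a difference of -1.33 ± 0.17, 2.52-fold lower (limma adjusted p = 0.000891). Its unscaled Cy5 intensity was 16664, 19764 and 16619 in KO against 24214, 17638 and 23152 in WT, so KO replicate 2 exceeded WT replicate 2 on that scale. Mdh2, the mitochondrial enzyme, read -0.63, -0.87 and -0.85 in KO against 0.39, -0.26 and 0.24 in WT. It was 1.87-fold lower without overlap (-0.91 ± 0.17, limma adjusted p = 0.0052).

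**Figure D2:**
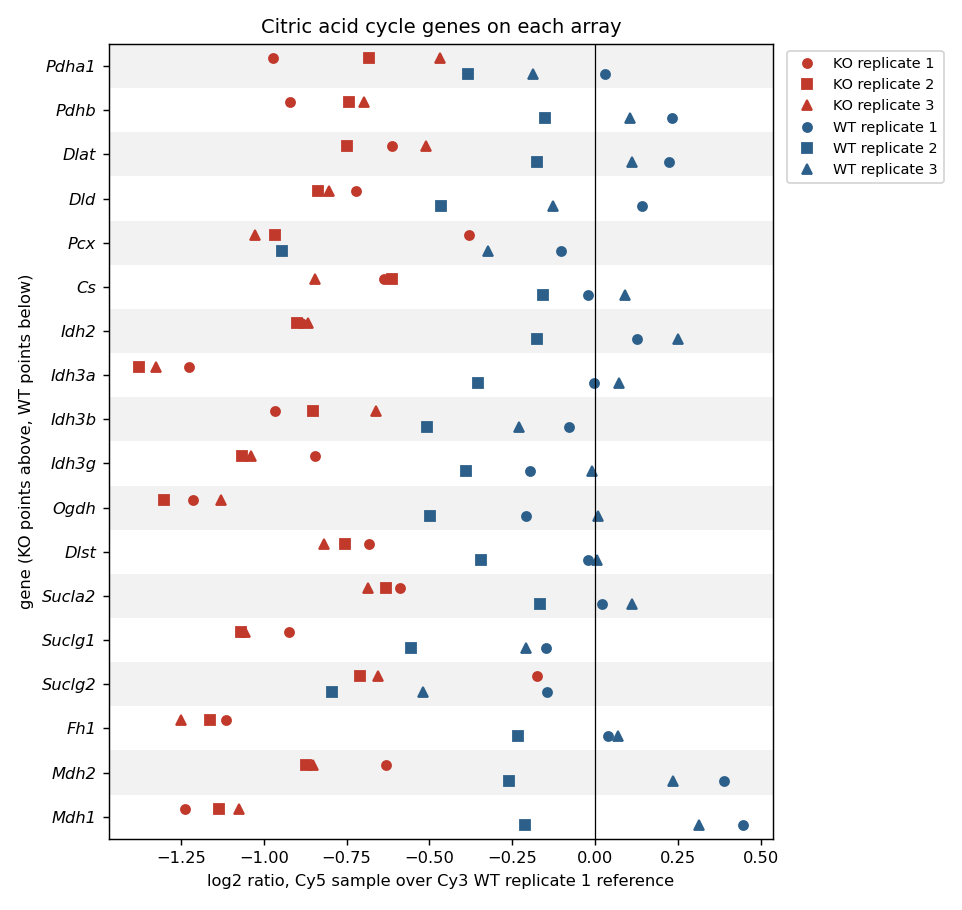
Log2 ratio of Cy5 sample over the Cy3 reference of WT replicate 1 (horizontal axis) for the 18 citric acid cycle genes, 1 point per array, with the 3 KO arrays above the 3 WT arrays in each row. KO points lie left of WT points for 16 genes, overlap for Pcx and Suclg2, and WT replicate 2 is the leftmost WT point in all 18 genes.

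Succinate dehydrogenase, the step of the cycle that is also part of the respiratory chain, was not among the 18 genes, and its 4 subunit genes were all called lower. Sdhd, a membrane anchor of succinate dehydrogenase, differed by -1.06 ± 0.14, and the iron-sulphur subunit Sdhb by -1.01 ± 0.15. The flavoprotein subunit Sdha differed by -0.73 ± 0.13 (limma adjusted p of 0.00382 or lower for these 3). Sdhb and Sdha lost their calls under median centring.

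Fatty acids enter mitochondria through the carnitine shuttle, and both of its acyltransferases among the 18 genes were lower in KO. Cpt1a, the liver-type outer-membrane enzyme that sets the rate of entry, read -1.07, -1.10 and -1.004 in KO against -0.02, -0.35 and 0.13 in WT. The groups were well apart, by -0.98 ± 0.14, 1.97-fold lower (limma adjusted p = 0.00123). A dimmer second probe gave -1.05. Cpt2, the inner-membrane enzyme, read -0.68, -0.65 and -0.59 in KO against 0.10, -0.25 and 0.10 in WT. It differed by -0.62 ± 0.12 without overlap (limma adjusted p = 0.0058), and its second probe gave -0.48.

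Of the 16 tested genes of uptake, activation and the shuttle that are not among the 36, 7 were called lower, 0 higher and 9 neither, where 20.0% of all tested genes were called lower, and their median was -0.37. Fabp3, the heart-type fatty acid binding protein, read -2.68, -2.78 and -2.45 in KO against 0.08, -0.66 and 0.21 in WT, a 5.69-fold lower level. Cpt1b, the muscle-type carnitine acyltransferase, differed by -1.64 ± 0.13. The acyl-CoA synthetases Acsl5 and Acsl4, which activate fatty acids, differed by -1.23 ± 0.12 and -1.20 ± 0.16.

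The first step of each round is an acyl-CoA dehydrogenase chosen by chain length, and 3 of the 4 genes were called lower. Acadvl, for very long chains, read -1.32, -1.62 and -1.35 in KO against 0.20, -0.42 and 0.15 in WT. This was the largest called difference of the 36 genes, -1.40 ± 0.18, 2.65-fold lower (limma adjusted p = 0.000879), and the groups were far apart. Its unscaled Cy5 intensity was 14245, 11756 and 10638 in KO against 16829, 13573 and 17478 in WT. Acadm, for medium chains, read -1.14, -1.39 and -1.39 in KO against -0.07, -0.57 and -0.21 in WT. It was 2.03-fold lower without overlap (-1.02 ± 0.15, limma adjusted p = 0.00163), and its promoter is the other window with the receptor core.

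Acadl, for long chains, read -0.65, -0.82 and -0.61 in KO against 0.14, -0.55 and -0.04 in WT. KO replicate 3 and WT replicate 2 nearly touched, and the difference of -0.54 ± 0.18 passed narrowly (limma adjusted p = 0.0464). That call was lost without KO replicate 1, 2 or 3 (adjusted p of 0.0528, 0.134 and 0.0725) and without WT replicate 1 or 3 (0.142 and 0.152), while without WT replicate 2 it was 0.00618. It was also lost with Agilent's ratios (0.058) and in the Cy5 channel alone (0.0546). Acads, for short chains, read -0.60, -1.005 and -0.72 in KO against -0.43, -0.48 and -0.34 in WT. The groups did not overlap, but the difference of -0.36 ± 0.13 was not called (limma adjusted p = 0.0618). Without KO replicate 1 it was called (adjusted p = 0.0191), as it was in the Cy5 channel alone (0.0288) and with array weights (0.00974). It stayed uncalled in the other alternatives, with 0.194 without WT replicate 3 and 0.863 under median centring.

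Electrons from these dehydrogenases pass through the electron transfer flavoprotein to ubiquinone, and its 3 genes were called lower. Etfa, the alpha subunit, read -0.97, -0.85 and -0.68 in KO against 0.28, -0.33 and 0.02 in WT, a difference of -0.83 ± 0.16 without overlap (limma adjusted p = 0.00602). Its second probe gave -0.51 and just missed the threshold (adjusted p = 0.0517 over all probes). Etfb, the beta subunit, read -0.65, -0.94 and -0.94 in KO against -0.17, -0.35 and 0.06 in WT. All KO arrays were lower, by -0.69 ± 0.14 (limma adjusted p = 0.00664), and the call did not survive a slide row block. Etfdh, the ubiquinone oxidoreductase, read -0.39, -0.57 and -0.43 in KO against 0.38, -0.09 and 0.22 in WT. It differed by -0.64 ± 0.14 without overlap (limma adjusted p = 0.00883).

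The later steps of the spiral are run by the trifunctional protein for long chains and by separate matrix enzymes for shorter ones. Hadhb, the thiolase subunit of the trifunctional protein, read -1.34, -1.18 and -1.28 in KO against -0.21, -0.54 and -0.08 in WT. It was 1.98-fold lower with a wide gap (-0.99 ± 0.14, limma adjusted p = 0.00118). Hadha, its hydratase and dehydrogenase subunit, read -1.03, -1.15 and -0.70 in KO against -0.07, -0.52 and -0.25 in WT. KO replicate 3 was the KO array nearest to WT, the difference was -0.68 ± 0.16 (limma adjusted p = 0.0122), and without WT replicate 3 the adjusted p was 0.0504.

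Echs1, the short-chain hydratase, read -0.39, -0.86 and -0.86 in KO against -0.03, -0.23 and -0.05 in WT. KO replicate 1 stood apart from the other KO arrays but below all WT arrays, and the difference was -0.60 ± 0.15 (limma adjusted p = 0.0159). The Echs1 call was lost without KO replicate 2 (0.0582), KO replicate 3 (0.051), WT replicate 1 (0.0556) or WT replicate 3 (0.0649) and with slide row as a block (0.0943). Hadh, the short-chain dehydrogenase, read -1.31, -0.72 and -0.66 in KO against -0.06, -0.42 and 0.00 in WT. Here KO replicate 1 was far lower than the other KO arrays, with a difference of -0.74 ± 0.20 (limma adjusted p = 0.0205) that lost its call without WT replicate 1 (0.0667) or WT replicate 3 (0.0845) and with slide row as a block (0.105). Acaa2, the matrix thiolase, read -0.93, -0.87 and -0.83 in KO against -0.03, -0.45 and -0.09 in WT. Its KO arrays were close together and all below WT, by -0.69 ± 0.13 (limma adjusted p = 0.00494).

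Unsaturated chains need isomerases and a reductase, and these 3 genes split. Eci1, the mitochondrial enoyl-CoA isomerase, read -1.14, -0.88 and -0.76 in KO against -0.14, -0.46 and -0.15 in WT. It was lower in KO by -0.67 ± 0.14 without overlap (limma adjusted p = 0.00753). Eci2, an isomerase found in mitochondria and peroxisomes, read 0.24, -0.04 and 0.03 in KO against 0.11, -0.05 and -0.06 in WT. It was the 1 gene of 36 with a positive difference, 0.08 ± 0.11, the groups overlapped and it was not called (limma adjusted p = 0.632). Its unscaled Cy5 intensity was 17152, 14971 and 12158 in KO against 7421, 7089 and 6122 in WT.

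Within each array, Eci2 minus Eci1 was 1.37, 0.84 and 0.78 in KO and 0.25, 0.41 and 0.08 in WT, a mean of 1.00 ± 0.32 in KO and 0.25 ± 0.17 in WT (SD, n = 3 each). Every KO array was above every WT array in that balance, which was likewise chosen after its values were seen and has no test. Decr1, the dienoyl-CoA reductase, read -0.33, -0.48 and -0.37 in KO against 0.28, -0.25 and -0.04 in WT. It did not overlap but was not called (-0.39 ± 0.14, limma adjusted p = 0.069), and its dimmer second probe gave 0.03. Without WT replicate 2 the Decr1 adjusted p was 0.0316, and with the replicate block it was 0.0471. It was also called with slide row as a block (0.0357) and with array weights (0.0237). It stayed uncalled in the other alternatives, with 0.198 without WT replicate 1, 0.117 with Agilent's ratios, 0.316 with the mean of its probes and 0.979 under median centring.

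**Figure D3:**
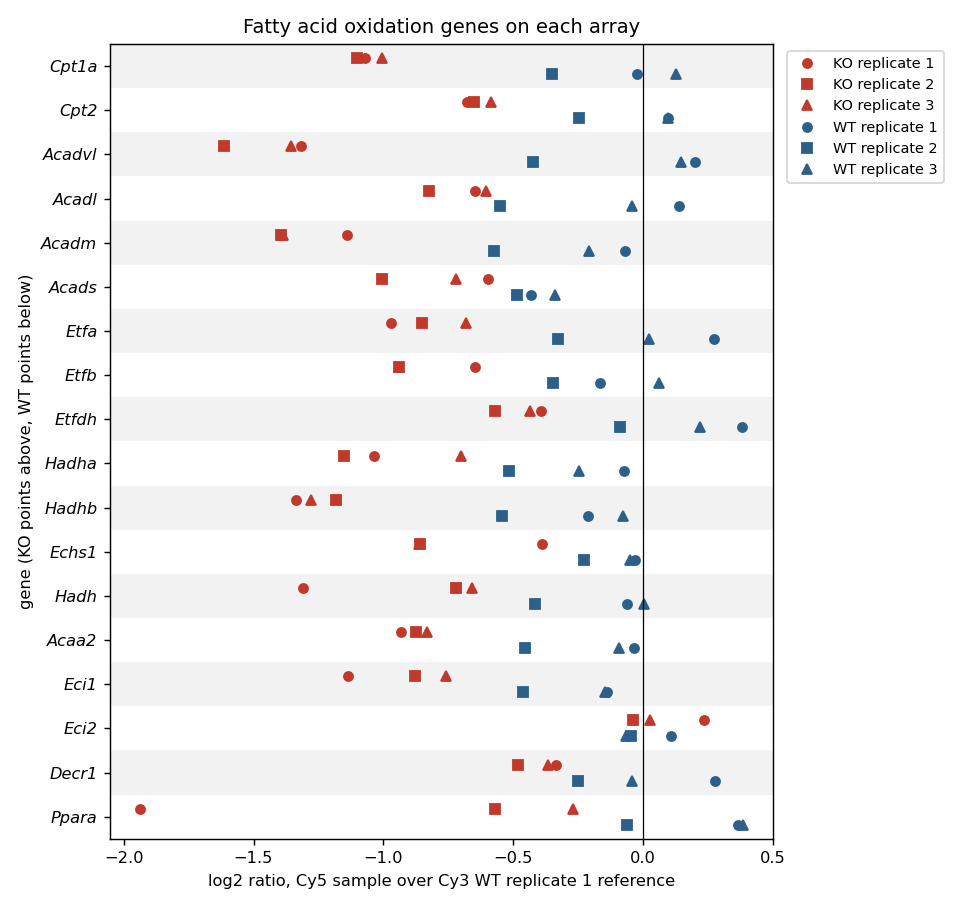
Log2 ratio of Cy5 sample over the Cy3 reference of WT replicate 1 (horizontal axis) for the 18 fatty acid oxidation genes, 1 point per array, with the 3 KO arrays above the 3 WT arrays in each row. KO points lie left of WT points for 17 genes and mix with them for Eci2, and the Ppara point of KO replicate 1 lies far left of the others at -1.94.

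Ppara encodes PPAR alpha, the nuclear receptor that switches on many fatty acid oxidation genes, and its level was uncertain. Its brightest probe read -1.94, -0.57 and -0.27 in KO against 0.37, -0.06 and 0.39 in WT. The groups did not overlap, but KO replicate 1 stood far from the other KO arrays (SD 0.89 in KO), and the difference of -1.15 ± 0.39 just missed the threshold (limma adjusted p = 0.0504). Without KO replicate 1 the difference was -0.65 and was called (adjusted p = 0.0157), and without KO replicate 3 it was called too (0.0222). It was also called with the mean of its probes (0.0164) and under median centring (0.0266). It was not called with Agilent's ratios (0.0889), under the slide row block (0.19) or without WT replicate 3 (0.148). The other 2 Ppara probes read -0.40 and -0.46 on KO replicate 1, gave -0.54 and -0.40, and were each called lower when every probe was tested on its own (adjusted p of 0.0313 and 0.0307).

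Of 12 tested targets of PPAR alpha outside the 36 genes, 4 were called lower, 0 higher and 8 neither, where 20.0% of all tested genes were called lower, and their median was -0.40. Among them were Pdk4 (-1.02 ± 0.14), the lipid droplet protein Plin5 (-0.59 ± 0.12) and the pantetheinase Vnn1 (-0.86 ± 0.18). The Plin5 call was lost under median centring and under the slide row block.

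Regulators of these pathways were measured beside them. Of 13 tested genes of PPAR, estrogen-related receptor, PGC-1 and mitochondrial transcription factors, 6 were called lower, 1 higher and 6 neither, where 20.0% of all tested genes were called lower and 15.4% higher, and their median was -0.24. Esrra, the estrogen-related receptor alpha known for inducing oxidative genes, read -1.57, -1.39 and -1.47 in KO against -0.19, -0.50 and -0.17 in WT, 2.28-fold lower (limma adjusted p = 0.00035). Esrrg read -1.56, -1.53 and -1.52 in KO against 0.05, -0.50 and -0.04 in WT, 2.60-fold lower (limma adjusted p = 0.000442). Esrrb read -2.21, -2.08 and -1.78 in KO against 0.12, -0.45 and 0.25 in WT, 3.99-fold lower (limma adjusted p = 0.000318). All 3 receptor genes thus separated the groups with a wide gap.

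Ppargc1a, which encodes the coactivator PGC-1 alpha, read -2.63, -1.32 and -1.36 in KO against 0.17, -0.11 and 0.32 in WT. The groups were apart, KO replicate 1 was again the lowest array by far, and the difference was -1.90 ± 0.33 (limma adjusted p = 0.00339). Gabpa, a subunit of nuclear respiratory factor GABP, was the 1 gene called higher (0.41 ± 0.13, limma adjusted p = 0.0426) and is named after its value was seen. Its call was lost without KO replicate 1 or 2 or any 1 WT replicate, where the adjusted p reached 0.122. It was also lost with Agilent's own ratios, when every probe was tested, with the mean of probes (0.290) and under the slide row block (0.353).

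**Figure D4:**
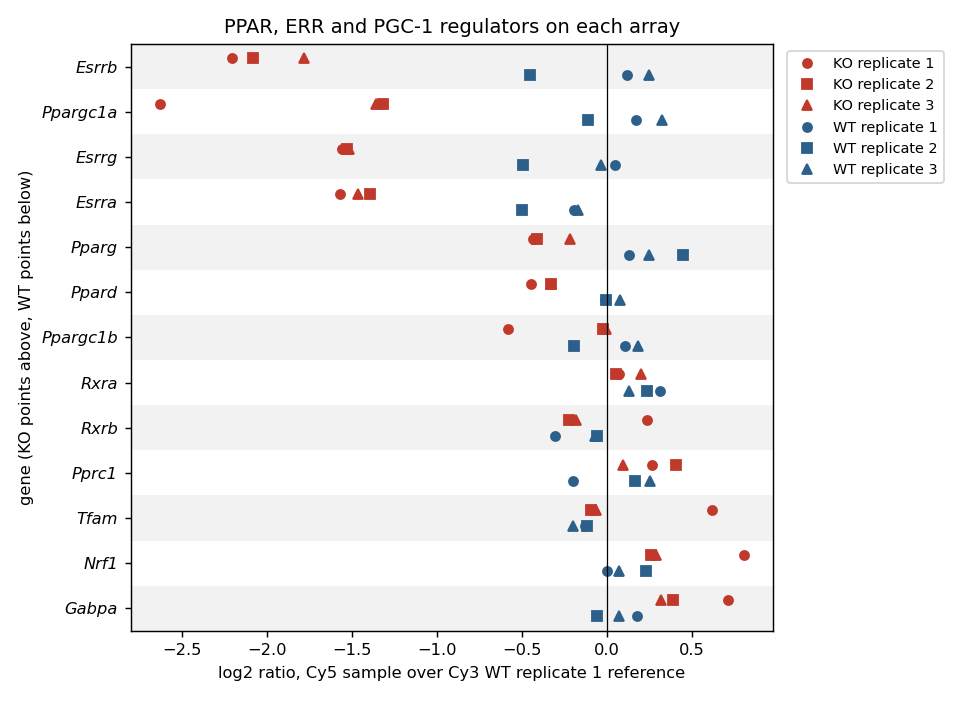
Log2 ratio of Cy5 sample over the Cy3 reference of WT replicate 1 (horizontal axis) for 13 regulator genes, 1 point per array, KO arrays above WT arrays in each row. Esrrb, Ppargc1a, Esrrg and Esrra have all KO points at -1.32 or lower and all WT points at -0.50 or higher. Counting these, all KO points lie left of all WT points in 6 rows and right of them in 3, and the other rows mix.

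Array by array, both pathways had all KO medians below all WT medians. The median of the citric acid cycle genes was -0.87, -0.86 and -0.85 in KO and 0.01, -0.35 and 0.04 in WT. The median of the fatty acid oxidation genes was -0.95, -0.87 and -0.71 in KO and -0.03, -0.38 and -0.04 in WT. WT replicate 2 was the WT array nearest to KO in both, and it was the lowest WT array for 35 of the 36 genes. The same sample was the lowest WT array for 10 of 10 intercalated cell markers and 10 of 10 loop and distal tubule markers. Their medians there were -0.46 and -0.69. It was also the lowest WT array for 14 of 14 proximal tubule and 4 of 4 erythroid markers. For principal cell, endothelial and podocyte markers the counts were 3 of 9, 5 of 8 and 3 of 6. For stroma, nephron progenitor and immune cell markers they were 2 of 10, 4 of 10 and 0 of 7. The share of all tested genes with this order was not computed.

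Between groups the intercalated cell markers and the loop and distal tubule markers were lower in KO too. Intercalated cell markers were called lower for 10 of 10, with a median difference of -2.42 and summed Cy5 intensities of 6061 to 7092 in KO against 15883 to 24714 in WT. Loop and distal tubule markers were called lower for 10 of 10, with a median of -2.20 and sums of 26606 to 30401 in KO against 59802 to 95146 in WT. Proximal tubule markers were called lower for 4 of 14, where 20.0% of all tested genes were. Their median difference was -0.41, and 12 of 14 differences were below 0. Their Cy5 sums were 63851 to 89158 in KO against 40677 to 75464 in WT. All sums in this paragraph are unscaled, and before scaling the Cy5 mean was higher in KO for 91.5% of all genes. WT replicate 2 had the lowest proximal tubule median of the 6 arrays, -1.03. Endothelial markers were called lower for 7 of 8 and erythroid markers for 4 of 4, while immune cell markers were called higher for 5 of 7 and lower for 1. Podocyte markers were called higher for 1 of 6, near the 15.4% of all tested genes called higher. The part of these markers in the differences of the 36 genes was not tested.

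**Figure D5:**
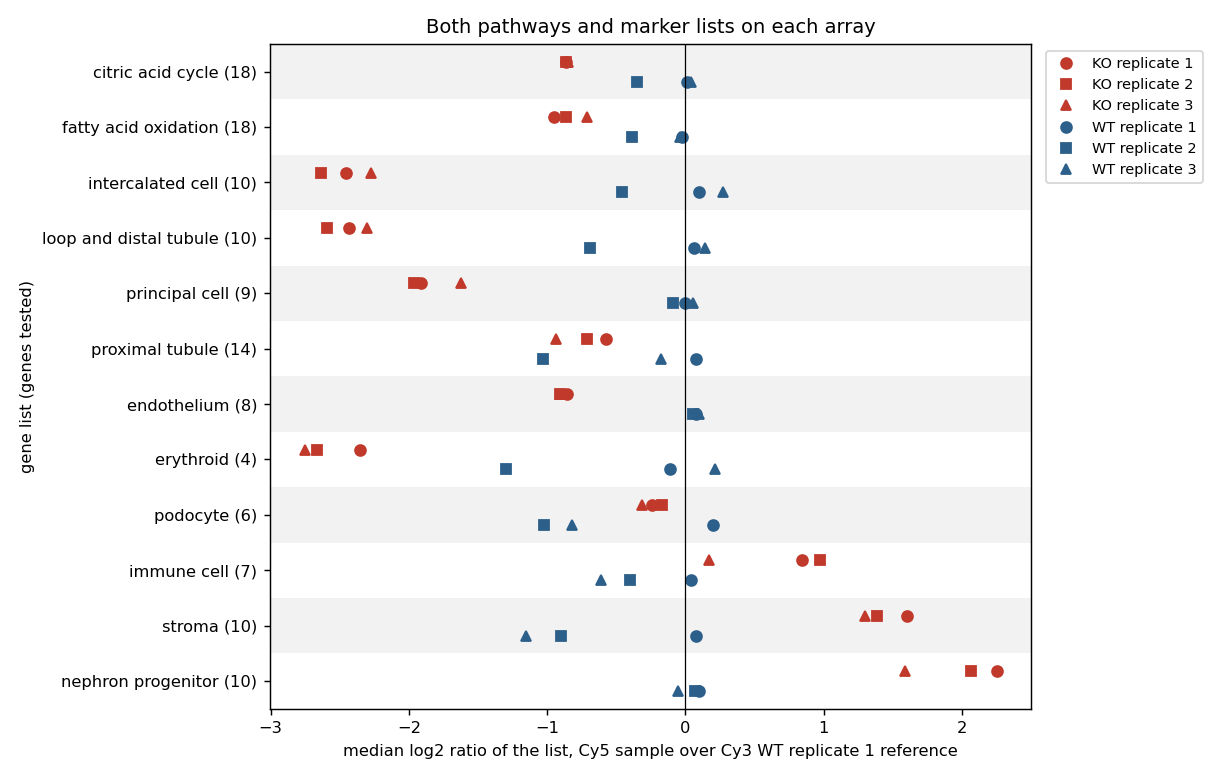
Median log2 ratio of Cy5 sample over the Cy3 reference of WT replicate 1 (horizontal axis) over the tested genes of both pathways and of 10 lists of cell markers, 1 point per array, KO arrays above WT arrays in each row. KO medians of the pathways lie between -0.95 and -0.71, those of intercalated and loop markers lie further left, and those of stroma and nephron progenitor markers lie right of 0.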

How the data were processed

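RNA was measured on 6 Agilent mouse arrays with 2 colours, 3 KO and 3 WT, with 0.5 µg of total RNA per labelling reaction. The deposited files held median spot and background intensities of both channels and a log10 ratio of background-subtracted, dye-normalised signals, Cy5 over Cy3, per the file headers written by Agilent Feature Extraction 10.7.3.1. The submitters' processing notes name version 6.1, and the series text speaks of a single colour. The deposited series matrix held the same log10 ratios, rounded, with a median of 0 per array. Dyes were not swapped, so a dye bias of a gene cancels in KO minus WT but not in a single ratio.

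Probe accessions were matched to symbols of a RefSeq table (GRCm38.p6), which named 27509 of 55681 probes. Gene positions are given only for the printed promoter windows, from that table. Intensities were corrected by normexp (offset 50), turned to log2 ratios and normalised within arrays by loess, with control spots at weight 0. Outlier spots (196 to 403 per array) and 117 probes with missing values were left out. Probes well above background in Cy5 on at least 3 of 6 arrays were kept, and the brightest probe stood for a gene, leaving 14755 genes. The lmFit and eBayes functions of limma 3.58.1 (R 4.3.3) gave KO minus WT (2-sided, 4 residual and 3.97 prior degrees of freedom) with Benjamini-Hochberg adjustment over all genes and a threshold of 0.05. The fit was tested on simulated data. Summaries used Python 3.11.15.

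The 36 genes, the other lists and the alternatives were chosen with earlier results of these data known. All 36 genes are named, and from each other list at most the 4 genes with the smallest unadjusted p, unless said otherwise. Some genes of the other lists are not reported here. Alternatives were median centring, Agilent's ratio, the series matrix, Cy5 alone, no background subtraction, other filters and probe rules, slide row and replicate blocks, array weights and leaving out each array. The number of arrays limits the precision.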

Additional observations from a re-analysis of the deposited data

How the results depend on the processing

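Most alternatives moved the counts of called genes by less than 1.5 times. Median centring left 4 citric acid cycle and 5 fatty acid oxidation genes called lower, with median differences of -0.38 and -0.34, while the median of all genes moved to 0.24. Under the slide row block the citric acid cycle median was -0.86. Under the 17 alternatives other than median centring, 13 to 17 citric acid cycle and 10 to 17 fatty acid oxidation genes were called lower. Their medians ran from -0.86 to -0.65 and from -0.84 to -0.61. Over all genes, the calls lower ran from 1482 with the slide row block to 3767 with array weights, each of 14755 tested. Leaving out each array in turn gave 13 to 16 and 10 to 15 genes, with medians of -0.82 to -0.65 and -0.80 to -0.61. In those fits 1971 to 3336 of all 14755 genes were called lower. Of the 30 called genes, 23 kept their call whichever array was left out, and 21 kept it in all alternatives but median centring. With the replicate block 15 and 16 genes were called, and 5131 of all genes beside 5213. Samples of the same number had correlated deviations of 0.135, 0.0832 and 0.201, each the highest for its sample, which is a hint from the data and not from the design. The count over all genes was 2219 with slide row in the fit and 3243 without WT replicate 3, a fit with fewer samples. The sign turned for Suclg2, to 0.28 with median centring, 0.0009 with Agilent's ratios, 0.0019 with the series matrix and 0.0814 in the Cy5 channel alone, and its difference ran from -0.20 to 0.14 when single arrays were left out. The sign of Eci2 turned under the slide row block, to -0.0345, and its difference ran from -0.0047 to 0.13 when single arrays were left out. Neither gene was called in any of these. The cause of these changes was not tested. Normexp on mean spot signals was not run, since the files used here hold medians. All 46 probes were well above background on all 6 arrays, and the KO ratios of the Ppara probe had an SD of 0.89.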

Other observations

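Of 13 tested enzymes that feed or drain the cycle, 6 were called lower, 1 higher and 6 neither, where 20.0% of all tested genes were called lower and 15.4% higher. Their median was -0.26. Me3, the mitochondrial NADP-dependent malic enzyme, read -1.87, -1.96 and -1.64 in KO against -0.26, -0.46 and 0.00 in WT, 2.99-fold lower. Me2, the NAD-dependent malic enzyme, was the 1 gene called higher (0.46 ± 0.14, limma adjusted p = 0.0365) and was picked out after its value was seen. Its call was lost when KO replicate 1, KO replicate 2, WT replicate 1 or WT replicate 3 was left out, with adjusted p of up to 0.122, and under the slide row block (0.0747). The cytosolic and mitochondrial aspartate aminotransferases Got1 and Got2, partners of malate dehydrogenase in the malate-aspartate shuttle, differed by -1.15 ± 0.15 and -0.73 ± 0.12.

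Of 19 tested genes of other mitochondrial acyl-CoA metabolism, 12 were called lower, 0 higher and 7 neither, beside the same 20.0% of all genes, with a median of -0.53. Pcca, a subunit of propionyl-CoA carboxylase, differed by -1.22 ± 0.18, and Acacb, the acetyl-CoA carboxylase whose product inhibits carnitine entry, by -1.04 ± 0.17. The dehydrogenase Acad11 and the thioesterase Acot13 differed by -0.76 ± 0.09 and -0.77 ± 0.12. Of 15 tested peroxisomal genes, 7 were called lower, 0 higher and 8 neither, again beside 20.0% of all genes, with a median of -0.34. The thiolases Acaa1a and Acaa1b and the transporter Abcd3 differed by -0.79 ± 0.10, -0.56 ± 0.12 and -0.63 ± 0.10. The calls of these 3, of Acad11, of Acot13 and of Got2 were lost under median centring, and that of Acaa1b also under the slide row block (0.0611).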
